A study of Mus musculus with 6 samples.

Results

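The genes described here carry out the final steps of fuel oxidation in heart mitochondria: the tricarboxylic acid (TCA) cycle, the entry of pyruvate, the malate-aspartate shuttle, and the oxidation of ketone bodies and branched-chain amino acids (BCAA). The 40 members were chosen by gene name and all were found, each on a single row, among the 14956 genes of the deposited table. They comprise 12 TCA cycle genes, 11 pyruvate genes, 3 shuttle genes, 3 ketone genes and 11 BCAA genes. The values come from sequencing of poly(A) RNA of mouse heart and are in FPKM, fragments scaled to transcript length and to library size. The Het group held 3 hearts from mice with 1 disrupted Otub1 copy (Otub1 +/-), and the WT group held 3 hearts from wild-type mice (Otub1 +/+). Mice of both groups had been given DOX, the cardiotoxic drug doxorubicin, in 6 injections over 2 weeks, so no untreated heart enters the comparison. The labels give neither age, sex nor strain, and each library is 1 mouse. The comparison asks how the loss of 1 Otub1 copy, which encodes a deubiquitinase, goes with the expression of these genes in the treated heart.

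The TCA cycle oxidises acetyl-CoA in the mitochondrial matrix and supplies the respiratory chain with electrons. Pyruvate enters through the mitochondrial pyruvate carrier and is turned into acetyl-CoA by the pyruvate dehydrogenase complex, which kinases switch off and phosphatases switch on. A related complex, branched-chain ketoacid dehydrogenase, commits leucine, isoleucine and valine to oxidation, and it has a kinase of its own. The heart also burns ketone bodies, and the malate-aspartate shuttle carries the electrons of cytosolic NADH into its mitochondria.

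Otub1 itself (ENSMUSG00000024767) stood at 4.83, 6.48 and 6.65 FPKM in Het 1, 2 and 3, against 15.4, 14.9 and 14.2 FPKM in WT 1, 2 and 3, so the groups did not overlap. Its log2 fold change was −1.19 (SE 0.19). An exact two-sided permutation test gave 0.1, which is the lowest p possible for 3 hearts against 3, and the adjusted p by limma was 0.376, or 0.0129 without Het 1. The hearts did not vary by genotype alone. Over the 11096 tested genes, those averaging 1 FPKM or more, the Pearson correlation of Het 1 with each remaining library was 0.844 to 0.887 on the log2 scale, whereas the best match of each remaining library was 0.970 to 0.987. The share of summed FPKM held by mitochondrially encoded genes was 65.0%, 54.8% and 56.1% in Het 1, 2 and 3 and 51.5% to 54.0% in WT. The depth of the libraries is unknown. Repeated low values of short RNAs hint at a step worth 1 read, but only 11 to 17 of 200 to 255 such values in a library were whole multiples of it (within 0.001), so no depth was derived from it. All 8 cardiomyocyte markers were listed in every heart, as the tissue label requires. Their summed level was 9598, 18600 and 18410 FPKM in Het 1, 2 and 3, against 20670 to 22730 FPKM in WT. The markers did not move together in Het 1, where the actin Actc1 and the calcium pump regulator Pln stood at 16.7% and 18.7% of their WT mean, and the troponin Tnni3 and the myosin light chain Myl2 at 92.9% and 82.0%. In a bulk sample such as this, fewer cells of a type and less RNA per cell cannot be told apart. The 4 fibroblast markers summed to 59.2, 82.9 and 86.9 FPKM in Het 1, 2 and 3, against 85.98 to 100.4 FPKM in WT. For the 4 endothelial markers it was 118.6, 97.5 and 126.4 FPKM, against 99.96 to 126.8 FPKM. In Het 1 Egfl7 of these stood at 246% of its WT mean and the others at 48.1% to 79.4%. The 4 macrophage markers summed to 47.2, 52.1 and 39.8 FPKM in Het, against 31.8 to 39.4 FPKM in WT. The 6 erythroid markers summed to 5705, 2404 and 680 FPKM in Het 1, 2 and 3 against 1006 to 1395 FPKM in WT. Globin genes made up most of this sum and stood at 408% to 547% of their WT mean in Het 1. There Alas2 stood at 227% and Slc4a1, listed below 1 FPKM in every heart, at 94.8%. The 6 lung epithelial markers summed to 794 FPKM in Het 3, against 0.0432 to 0.129 FPKM in WT, and all 6 were listed at 0 in Het 1 and Het 2. The 8 hepatocyte markers summed to 2.60, 41.8 and 1.97 FPKM in Het 1, 2 and 3 against 131 to 184 FPKM in WT. The 5 interferon-response genes summed to 192, 169 and 14.1 FPKM in Het 1, 2 and 3, against 11.0 to 13.9 FPKM in WT. Irf7, a transcription factor of that response, stood at 72.7, 40.01 and 2.93 FPKM in Het, against 2.40, 3.07 and 3.58 FPKM in WT. What part these differences between libraries have in the values below was not tested.

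No member passed the test between genotypes, while every member was at its lowest in a single heart, Het 1. Each of the 40 members had its lowest FPKM of all 6 hearts in Het 1, which held for 65.1% of all tested genes. In Het 1 the members stood at 5.50% to 72.8% of their WT mean, with a median of 26.3%, while the median over all tested genes was 64.8%. Below 25% of the WT mean in Het 1 were 18 of the 40 members, against 7.34% of all tested genes. In Het 2 the members stood at 88.6% to 160% of the WT mean with a median of 107%, and in Het 3 at 79.0% to 158% with a median of 105%. The summed FPKM of the 40 genes was 1023, 4169 and 4084 in Het 1, 2 and 3, against 4195, 3646 and 4245 in WT 1, 2 and 3. Taken as a share of all nuclear transcripts it was 0.383% in Het 1, 1.61% and 1.62% in Het 2 and Het 3, and 1.36% to 1.61% in WT.

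In limma's test on log2(FPKM + 1) with Benjamini-Hochberg adjustment, 0 of 40 members passed at 0.05, where 0.018% of the 11096 tested genes did, and 0 had an unadjusted p under 0.05, where 3.88% did. Their adjusted p values were 0.753 to 0.846, and no member reached an adjusted p under 0.392 in any alternative. The authors' deposited table likewise lists 0 members with an adjusted p under 0.05 (1.02% of its 14956 genes) and 0 with an unadjusted p under 0.05 (7.08% of its genes). By limma with all libraries, the log2 fold change of Het over WT was below 0 for all 40 members, where 76.6% of tested genes were below 0. It was above 0 for 3 of them (Bckdha, Bckdhb and Ivd) with median-ratio scaling or quantile normalization. With median-ratio scaling it was above 0 for 5266 of the 11096 tested genes. Without Het 1 it was above 0 for 29 members and for 41.7% of tested genes, and with library weights for most members. The authors' log2 ratio of mean levels was above 0 for Pdpr, at 0.11. Its Het mean was 10.1 FPKM and its WT mean 9.40 FPKM. The median limma fold change with all libraries was −0.52 for the members and −0.18 for all tested genes, on the log2 scale.

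**Figure D1:**
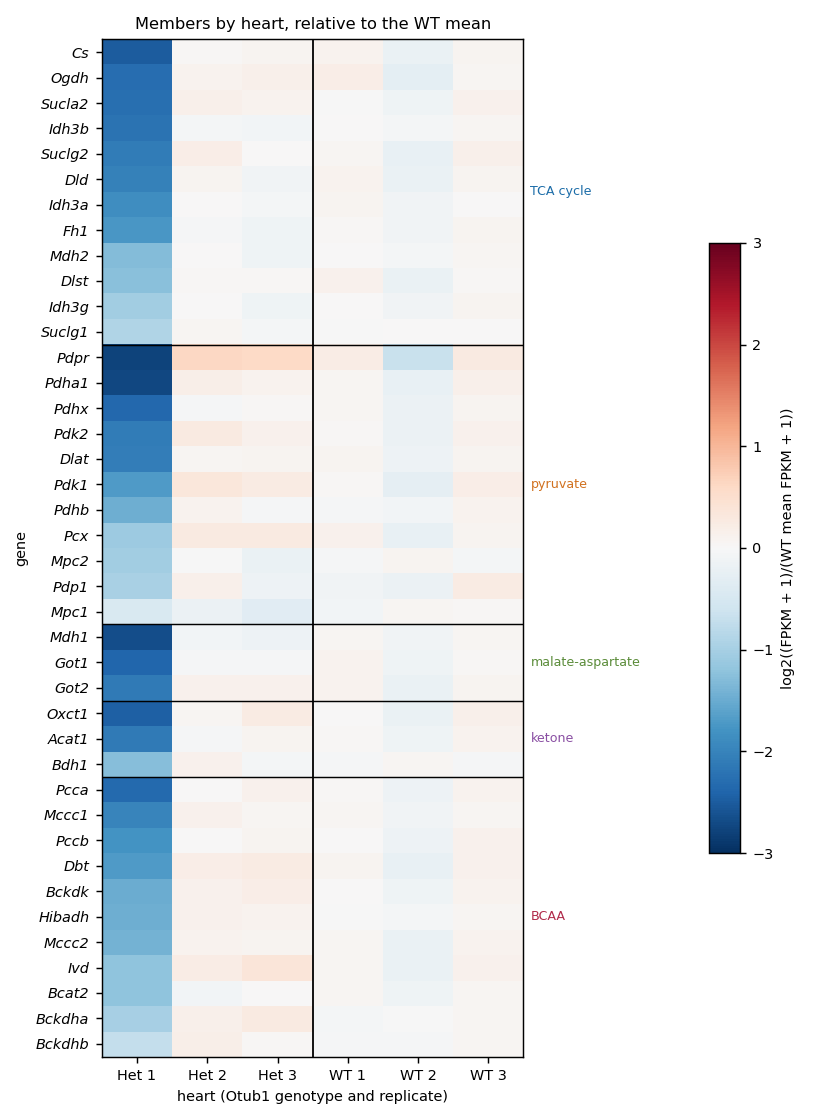
Each of the 40 members (rows, ordered within pathways by Het 1) in each heart (columns), coloured by the log2 ratio of FPKM + 1 to the WT mean. The Het 1 column is blue in every row, from −2.78 for Pdpr to −0.45 for Mpc1, while the other 5 columns lie closer to 0.

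The TCA cycle genes were close to their WT level in Het 2 and Het 3 and at 17.4% to 52.9% of it in Het 1. Citrate synthase (Cs), which condenses acetyl-CoA with oxaloacetate, stood at 33.1, 196 and 200.2 FPKM in Het 1, 2 and 3, against 205, 165 and 200 FPKM in WT 1, 2 and 3. Its value in Het 1 was 17.4% of the WT mean, the lowest of the 12 genes, and the other 5 hearts overlapped. NAD-dependent isocitrate dehydrogenase is built from the products of Idh3a, Idh3b and Idh3g. Idh3a, the catalytic subunit, stood at 26.4, 99.2 and 95.7 FPKM in Het, against 105.5, 92.0 and 99.6 FPKM in WT. For Idh3b the values were 30.9, 143 and 139 FPKM in Het, against 149, 142 and 154 FPKM in WT. Idh3g, a regulatory subunit, was less low in Het 1, at 57.5, 120.4 and 108 FPKM in Het, against 120.7, 111 and 125 FPKM in WT. The log2 fold changes of the 3 subunits were −0.64 (SE 0.52), −0.79 (SE 0.60) and −0.38 (SE 0.33), none past the threshold.

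The 2-oxoglutarate dehydrogenase complex consists of Ogdh, Dlst and Dld, and Dld also serves the pyruvate and branched-chain complexes. Ogdh stood at 70.6, 375 and 384 FPKM in Het 1, 2 and 3, against 398, 281 and 360.2 FPKM in WT 1, 2 and 3. Dlst and Dld stood at 40.9% and 23.6% of the WT mean in Het 1. Succinyl-CoA ligase pairs Suclg1, the shared subunit, with Sucla2 (ATP-forming) or Suclg2 (GTP-forming). Suclg1 was the least low of the 12 genes in Het 1, at 32.3, 63.4 and 58.9 FPKM in Het, against 60.2, 61.8 and 61.1 FPKM in WT. Sucla2 and Suclg2 stood at 20.3% and 20.2% of the WT mean in Het 1, so that their ratio was 0.247, 0.256 and 0.230 in Het and 0.261, 0.230 and 0.250 in WT. Part of the Suclg2 signal is uncertain, since the listed processed pseudogene Gm15163 shares sequence with it. Fumarase (Fh1) stood at 24.6, 82.9 and 78.1 FPKM in Het, against 86.6, 78.8 and 89.5 FPKM in WT. Mitochondrial malate dehydrogenase (Mdh2) stood at 99.8, 249.8 and 226 FPKM in Het, against 251, 239 and 257 FPKM in WT. The 12 genes had a median log2 difference from the WT mean of −1.95, 0.04 and −0.05 in Het 1, 2 and 3, and of 0.04, −0.12 and 0.06 in WT 1, 2 and 3.

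**Figure D2:**
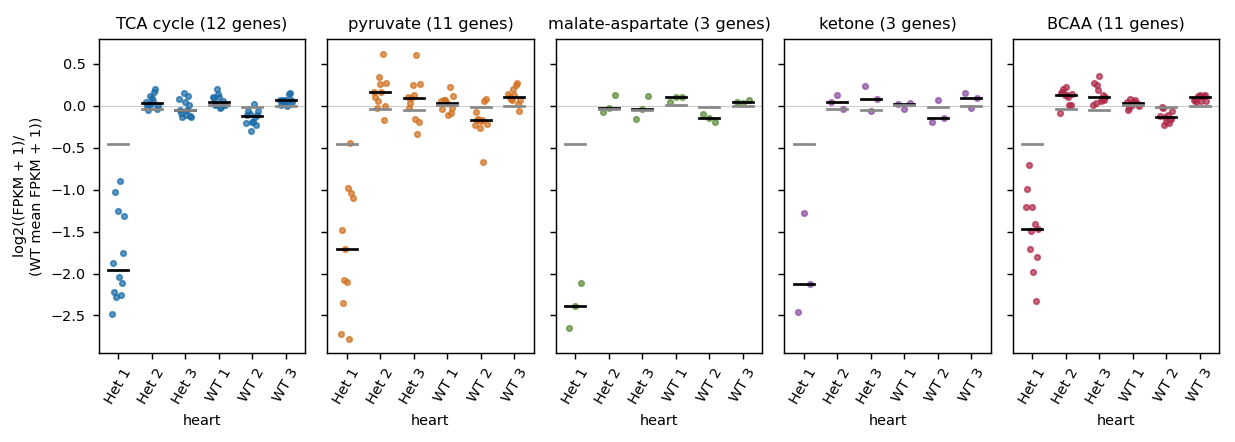
Log2 ratio of FPKM + 1 to the WT mean for each gene (points), by heart and pathway, with the pathway median (black bar) and the median of all tested genes (grey bar). In Het 1 the pathway medians lie between −2.39 (malate-aspartate) and −1.47 (BCAA), below the −0.46 of all tested genes.

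Among the pyruvate genes, the values in Het 1 spanned the whole range of the members, with Mpc1 nearest to its WT mean and Pdpr furthest below it. Mpc1 (GRCm38 chromosome 17, 8282904 to 8297661, plus strand), which forms the mitochondrial pyruvate carrier with Mpc2, stood at 43.9, 53.4 and 47.6 FPKM in Het 1, 2 and 3, against 56.5, 62.7 and 61.4 FPKM in WT 1, 2 and 3. It stood closest to its WT mean of all members in Het 1 and was the only one of 40 whose groups did not overlap. Groups separated in that direction, lower in Het, for 15.6% of all tested genes, so the members' share was below the background, and 0 members were separated as higher in Het, against 1.83% of all tested genes. With median-ratio scaling or quantile normalization the groups of Mpc1 overlapped. The log2 fold change of Mpc1 was −0.32 (SE 0.21), with an adjusted p by limma of 0.753. Its level is uncertain, because the processed pseudogene Mpc1-ps on chromosome 12 shares sequence with it and was listed at 60.8, 243.5 and 233 FPKM in Het, against 235, 231.5 and 266 FPKM in WT. That copy stood above Mpc1 in every heart and its groups overlapped. Mpc2 stood at 9.09, 19.6 and 17.1 FPKM in Het, against 19.3, 20.9 and 18.9 FPKM in WT, and overlapped.

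The subunits of pyruvate dehydrogenase were unequally low in Het 1. Pdha1, the catalytic E1 alpha subunit, stood at 36.7, 278 and 266 FPKM in Het 1, 2 and 3, against 258, 211 and 273 FPKM in WT 1, 2 and 3. Its partner Pdhb stood at 43.0, 131 and 119 FPKM in Het, against 119, 115 and 130 FPKM in WT. The ratio of Pdha1 to Pdhb was therefore 0.853, 2.12 and 2.23 in Het 1, 2 and 3, against 1.84 to 2.17 in WT. Pdhb shares sequence with the listed processed pseudogene Gm6123, so part of its signal may belong to that copy. Dlat, the acetyltransferase, stood at 15.7, 72.7 and 74.2 FPKM in Het, against 73.4, 62.2 and 73.3 FPKM in WT. Pdhx, which holds the Dld subunit in the complex, stood at 4.20, 25.1 and 26.1 FPKM in Het, against 26.9, 22.7 and 27.2 FPKM in WT. For these 4 genes Het 1 was far from the other 5 hearts, which overlapped.

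Of the regulators of the complex, Pdpr and both kinases were low in Het 1 and high in the other Het hearts. Pdpr (GRCm38 chromosome 8, 111094630 to 111137074, plus strand), the regulatory subunit of pyruvate dehydrogenase phosphatase, stood at 0.517, 15.0 and 14.8 FPKM in Het 1, 2 and 3, against 11.1, 5.52 and 11.6 FPKM in WT 1, 2 and 3. Its value in Het 1 was 5.50% of the WT mean, the lowest of the 40 members, while Het 2 and Het 3 lay above every WT heart. Pdpr shares 11 windows of 50 nt with the listed long non-coding RNA 9430091E24Rik, so part of its signal is uncertain. Pdp1, the catalytic phosphatase subunit, stood at 2.76, 7.30 and 5.67 FPKM in Het, against 5.88, 5.59 and 7.82 FPKM in WT. The inhibitory kinase Pdk1 stood at 4.17, 20.5 and 19.1 FPKM in Het, against 16.3, 13.1 and 18.4 FPKM in WT. Pdk2, the more abundant of these kinases here, stood at 23.6, 126 and 115 FPKM in Het, against 107, 92.3 and 114.7 FPKM in WT. Both kinases had Het 1 below and Het 2 and Het 3 above all WT hearts, the margin of Het 3 over the highest WT heart being small for Pdk2. Pyruvate carboxylase (Pcx), which makes oxaloacetate from pyruvate, had the same order, at 2.34, 7.62 and 7.54 FPKM in Het, against 6.77, 5.15 and 6.51 FPKM in WT.

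The malate-aspartate shuttle had the lowest pathway median in Het 1. Cytosolic malate dehydrogenase (Mdh1), the member with the highest mean level in WT, stood at 101, 607 and 573 FPKM in Het 1, 2 and 3, against 660, 596 and 661 FPKM in WT 1, 2 and 3. Its log2 fold change of −0.96 (SE 0.70) was the furthest below 0 of the 40 and missed the threshold (adjusted p by limma 0.753). The ratio of Mdh1 to Mdh2 was 1.01, 2.43 and 2.54 in Het 1, 2 and 3, against 2.5 to 2.63 in WT. The cytosolic aspartate aminotransferase Got1 (GRCm38 chromosome 19, 43499752 to 43524605, minus strand) was listed at 55.6, 290 and 286 FPKM in Het, against 316, 268 and 301 FPKM in WT. Its mitochondrial counterpart Got2 stood at 35.9, 174 and 172 FPKM in Het, against 170, 139 and 166 FPKM in WT. The ratio of Got1 to Got2 was 1.55, 1.67 and 1.67 in Het and 1.86, 1.93 and 1.81 in WT, lower in every Het heart. This difference in ratio was seen in the data and was not tested, and Got2 shares sequence with the listed processed pseudogene Got2-ps1.

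The promoters are printed to show the genes at both ends of the Het 1 range, Mpc1 and Pdpr, and Got1 of the shuttle, the pathway with the lowest median in that heart. Sequences are from RefSeq on GRCm38.p6, 250 bases before to 50 bases after a gene start listed there, written 5′ to 3′ on the gene's strand. They cover chr17:8283537-8283836 for Mpc1, the first of 2 starts listed for this gene, chr8:111094495-111094794 for Pdpr and chr19:43524556-43524855 (minus strand) for Got1. The Mpc1 window lies inside the gene span given above, which begins at 8282904, as the RefSeq start used here is downstream of that position. Capitals mark matches to the motifs searched.
Mpc1: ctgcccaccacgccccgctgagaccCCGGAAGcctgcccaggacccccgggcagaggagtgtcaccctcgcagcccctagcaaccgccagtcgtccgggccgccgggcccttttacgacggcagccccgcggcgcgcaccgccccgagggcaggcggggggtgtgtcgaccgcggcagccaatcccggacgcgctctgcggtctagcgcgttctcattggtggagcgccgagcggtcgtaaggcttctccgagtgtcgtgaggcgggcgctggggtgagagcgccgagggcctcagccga
Pdpr: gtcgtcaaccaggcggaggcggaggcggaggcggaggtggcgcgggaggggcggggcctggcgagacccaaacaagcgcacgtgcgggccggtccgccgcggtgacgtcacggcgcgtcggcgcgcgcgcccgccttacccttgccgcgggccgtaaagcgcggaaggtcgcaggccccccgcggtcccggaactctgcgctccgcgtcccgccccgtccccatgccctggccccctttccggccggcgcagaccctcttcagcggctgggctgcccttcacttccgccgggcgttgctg
Got1: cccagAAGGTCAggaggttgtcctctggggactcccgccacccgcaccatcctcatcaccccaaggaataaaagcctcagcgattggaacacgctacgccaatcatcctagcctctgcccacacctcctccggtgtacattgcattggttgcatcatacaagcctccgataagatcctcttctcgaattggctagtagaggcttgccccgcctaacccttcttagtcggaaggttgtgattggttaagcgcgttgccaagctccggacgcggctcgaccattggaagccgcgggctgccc
Both strands were searched for the letters AAGGTCA (half-site of the estrogen-related receptors, regulators of mitochondrial genes), TNAAGGTCA (its extended form, which contains the half-site), CCGGAAG (ETS factors such as GABP), GCGCA, any base and GCGC in a row (NRF-1) and AAGATGGCG (YY1). The match in Mpc1 is CCGGAAG, that in Got1 is AAGGTCA, and Pdpr held none of these letters in this window. The window of the other Mpc1 start, chr17:8284204-8284503, held none either. Promoters were listed for 36 of the 40 members. The half-site was found for Ogdh and Got1, 5.56% of these members, against 5.38% of all genes with a promoter. CCGGAAG was found for Idh3b, Idh3g, Dlst and Mpc1 (11.1%, against 9.93% of all genes) and the NRF-1 letters for Dld, Sucla2, Pccb and Hibadh (11.1%, against 5.19%). AAGATGGCG was found for Idh3g and Bckdha (5.56%, against 1.64%), and the extended form for 0 members (against 1.43%).

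The ketone body genes were likewise lowest in Het 1. Oxct1, the transferase that commits ketone bodies to oxidation, stood at 40.3, 234 and 266 FPKM in Het 1, 2 and 3, against 229, 197 and 251 FPKM in WT 1, 2 and 3. Acat1, the thiolase that splits acetoacetyl-CoA, stood at 24.0, 105 and 114 FPKM in Het, against 111, 98.0 and 116 FPKM in WT. The hydroxybutyrate dehydrogenase Bdh1 stood at 5.51, 16.3 and 14.2 FPKM in Het, against 14.4, 15.6 and 14.5 FPKM in WT. Het 1 was at 17.9%, 22.2% and 37.1% of the WT mean for these genes, and Het 2 and Het 3 fell within or near the WT range. Their log2 fold changes were −0.72 (SE 0.72), −0.69 (SE 0.60) and −0.40 (SE 0.38), each with an adjusted p by limma of 0.753.

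**Figure D3:**
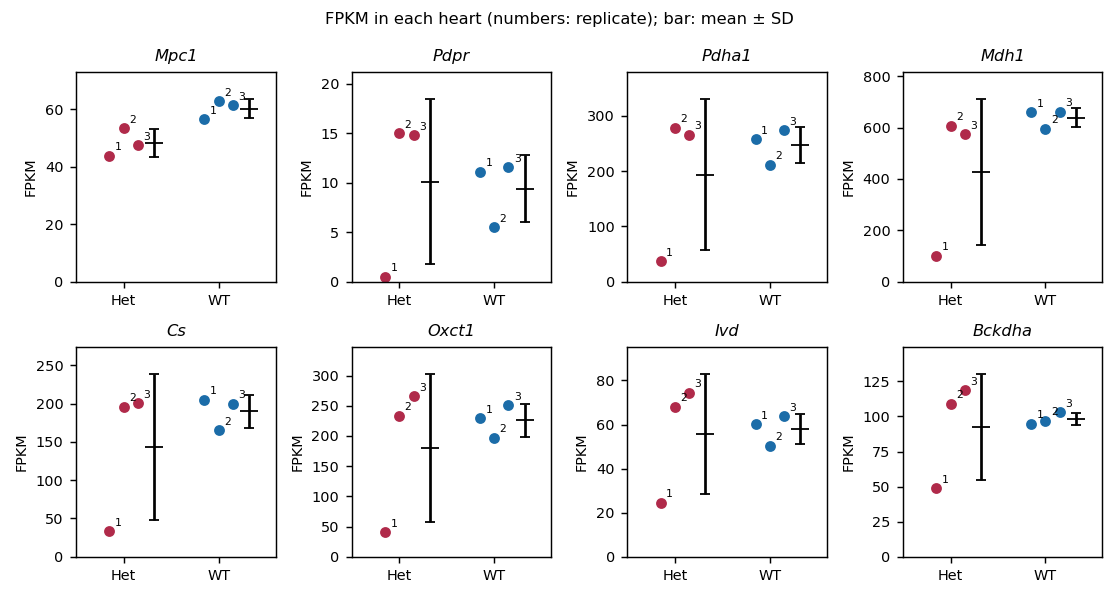
FPKM of 8 members in each heart (points, numbered by replicate), Het left and WT right, with the mean and SD (n = 3 each). Het 1 is the lowest point in every panel, and for Pdpr, Ivd and Bckdha Het 2 and Het 3 lie above all WT points.

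The BCAA genes had the pathway median nearest to WT in Het 1, with a median log2 difference of −1.47 there, and of 0.13 and 0.10 in Het 2 and Het 3. Bcat2, the mitochondrial aminotransferase that takes the first step, stood at 8.45, 19.4 and 20.96 FPKM in Het 1, 2 and 3, against 21.5, 18.9 and 21.8 FPKM in WT 1, 2 and 3. Branched-chain ketoacid dehydrogenase is built from Bckdha and Bckdhb (E1), Dbt (E2) and Dld. Bckdha stood at 48.9, 109 and 119 FPKM in Het, against 94.9, 97.0 and 103 FPKM in WT, so Het 1 lay below and the other Het hearts above all WT hearts. Bckdhb stood at 13.2, 25.0 and 22.6 FPKM in Het, against 21.7, 21.8 and 23.0 FPKM in WT. Dbt stood at 3.46, 15.7 and 16.3 FPKM in Het, against 14.4, 11.4 and 14.8 FPKM in WT. The inhibitory kinase Bckdk stood at 5.70, 19.7 and 20.6 FPKM in Het, against 18.03, 16.3 and 19.4 FPKM in WT. Its ratio to Bckdha was 0.117, 0.180 and 0.173 in Het and 0.190, 0.168 and 0.188 in WT.

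Genes of the later steps were also lowest in Het 1. Ivd, which oxidises isovaleryl-CoA from leucine, stood at 24.6, 68.0 and 74.4 FPKM in Het 1, 2 and 3, against 60.0, 50.4 and 63.7 FPKM in WT 1, 2 and 3. Mccc1, the alpha subunit of the carboxylase of leucine breakdown, stood at 1.51, 9.85 and 9.33 FPKM in Het, against 9.26, 8.22 and 9.29 FPKM in WT. In Het 1 it stood at 17.0% of its WT mean, and its partner Mccc2 at 34.1%. The propionyl-CoA carboxylase subunit Pcca stood at 1.63, 12.3 and 13.5 FPKM in Het, against 12.5, 10.8 and 13.3 FPKM in WT. Its partner Pccb stood at 8.21, 31.2 and 32.7 FPKM in Het, against 31.4, 27.6 and 34.0 FPKM in WT. The alpha subunits of both carboxylases were lower than the beta subunits in Het 1, relative to WT. The ratio of Pcca to Pccb was 0.199, 0.395 and 0.413 in Het 1, 2 and 3, against 0.391 to 0.398 in WT. The ratio of Mccc1 to Mccc2 was 0.253, 0.521 and 0.500 in Het 1, 2 and 3, against 0.487 to 0.542 in WT. Hibadh, a dehydrogenase of valine breakdown, stood at 5.14, 17.7 and 17.3 FPKM in Het, against 16.0, 15.3 and 16.7 FPKM in WT.

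Without Het 1, the remaining Het hearts stood slightly above WT for most pyruvate and BCAA members, and 0 members passed limma's test after adjustment, where 0.0721% of all tested genes did. The groups then separated for 12 of the 40 members. Higher in both Het hearts than in every WT heart were 11 (27.5%), where this held for 10.9% of all tested genes. They were Pdk1, Pdk2, Pdpr and Pcx of the pyruvate genes, Got2, and Bckdha, Dbt, Bckdk, Ivd, Mccc1 and Hibadh of the BCAA genes. The nearest values of the groups were close for Mccc1 (9.331 FPKM in Het 3, 9.285 in WT 3) and Pdk2 (115.0 in Het 3, 114.7 in WT 3). Margins were also small for Bckdk (19.68 in Het 2, 19.38 in WT 3) and Got2 (171.8 in Het 3, 169.7 in WT 1). Pdpr had a wider margin (14.83 in Het 3, 11.55 in WT 3). Mpc1 was the single member with the opposite separation, against 21.8% of all tested genes. The log2 fold changes without Het 1 were 0.67 (SE 0.31) for Pdpr, 0.31 (SE 0.14) for Pdk1, 0.30 (SE 0.12) for Ivd and 0.21 (SE 0.09) for Bckdha. By limma the adjusted p without Het 1 was 0.448 for Pdpr (0.448 to 0.956 over all settings), 0.440 for Pdk1 (0.440 to 0.943), 0.404 for Ivd (0.404 to 0.992) and 0.420 for Bckdha (0.419 to 0.978). Mpc1 had −0.25 (SE 0.10) and was the single member with an unadjusted p by limma under 0.05 (0.0441), with an adjusted p of 0.392 (0.392 to 0.974 over all settings). An unadjusted p under 0.05 in that direction was found for 9.41% of all tested genes. The pathway medians of the log2 fold change were −0.0019 for the TCA cycle, 0.08 for pyruvate, −0.03 for the shuttle, 0.04 for ketone and 0.10 for BCAA genes, against −0.04 for all tested genes. Without WT 2 as well, a setting chosen after seeing the data, the median fell to 0.0068 for pyruvate and to 0.09 for BCAA genes. In that setting it was −0.06 for the TCA cycle, −0.10 for the shuttle, 0.06 for ketone genes and −0.05 for all tested genes.

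**Figure D4:**
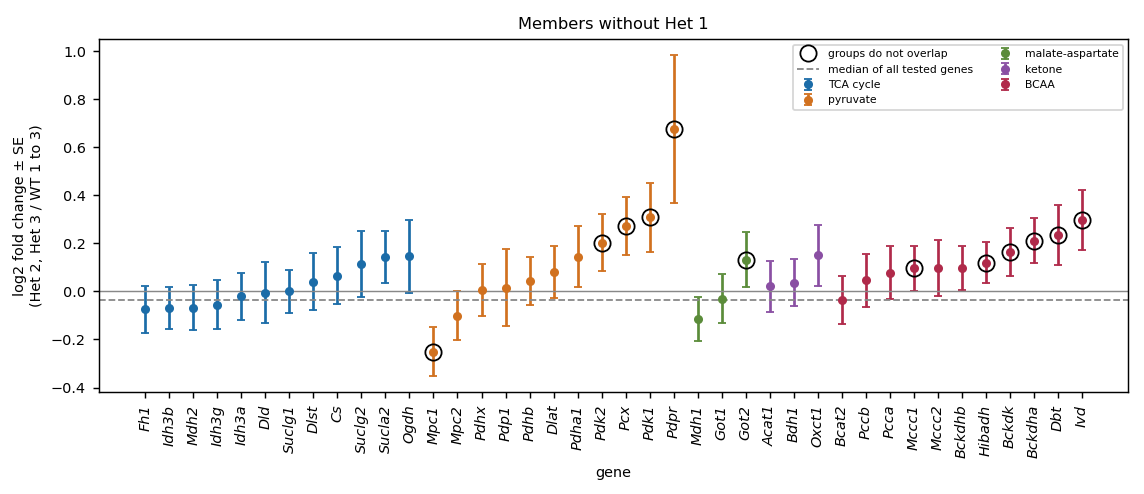
Log2 fold change (points) with its SE (bars) of each member between Het 2 and Het 3 together and the 3 WT hearts, by pathway, with circles around the 12 members whose groups do not overlap. Values run from −0.25 (Mpc1) to 0.67 (Pdpr), and the BCAA genes other than Bcat2 lie above 0.

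WT 2 was the lowest of the WT hearts for 34 of the 40 members, where this held for 41.7% of all tested genes. Pdpr was furthest, with WT 2 at 48.6% of the mean of WT 1 and WT 3. Left without both Het 1 and WT 2, a setting chosen after seeing the data, 11 members (27.5%) were higher and 10 (25.0%) lower in Het with no overlap, against 14.4% and 30.1% of all tested genes. Leaving out a library can only keep or raise such counts, and the 11 were the same members as without Het 1 alone. The deviation of Het 1 from Het 2 and Het 3 and that of WT 2 from WT 1 and WT 3 use no common library. Across the 40 members they were correlated at a Pearson r of 0.69 and a Spearman rho of 0.57, and at 0.63 and 0.53 without Pdpr. Across all 11096 tested genes the values were 0.50 and 0.56. These are descriptions across genes of the same libraries, and genes are not independent replicates. The median deviation was −1.89 for the members and −0.42 for all tested genes in Het 1, and −0.22 and −0.03 in WT 2.

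**Figure D5:**
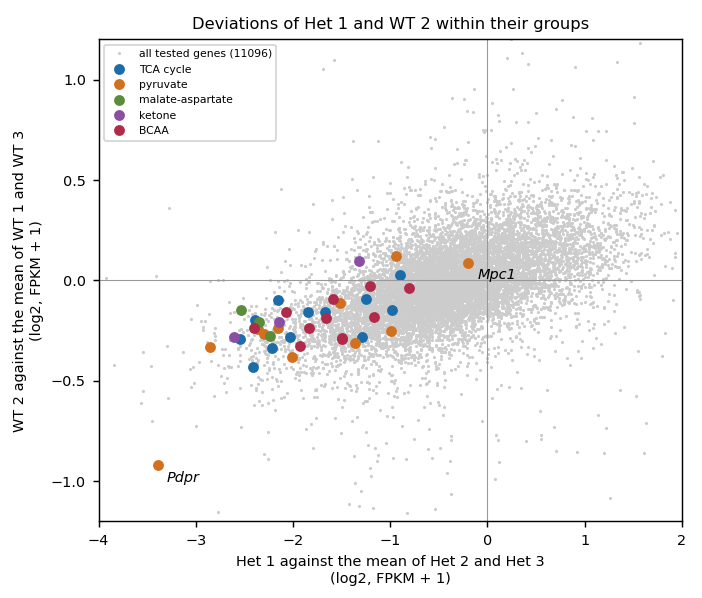
Each gene's log2 deviation of Het 1 from the mean of Het 2 and Het 3 (x axis) and of WT 2 from the mean of WT 1 and WT 3 (y axis), for the members (coloured by pathway) and all tested genes (grey, 46 outside the axes). All 40 members lie left of 0 and most lie below 0, with Pdpr lowest on both axes.

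The Het 1 deviation was set beside transcript length and expression level. Tested genes whose longest transcript was under 1000 nt had a median Het 1 deviation of −0.01, and those of the longer classes −0.40 to −0.49. Of the members, 36 had a longest transcript of at least 2000 nt, and their class medians were −1.83 to −2.09. Mpc1 was the shortest member, at 961 nt. By level, the 166 tested genes with a WT mean of 100 to 300 FPKM had a median of −1.15, and the 13 members among them −2.24. In each class of length or level that held a member, the members' median lay below that of all tested genes. Within the members, Spearman's rho of the Het 1 deviation was −0.20 with transcript length and −0.35 with WT level. Over all tested genes the values were −0.1 (for the 10989 with a length) and −0.3. What part length, level or RNA quality have in the Het 1 values was not tested.

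Other genes of these pathways, which were not among the members, were also mostly lowest in Het 1. Of 39 such genes listed, 35 were tested, 0 passed limma's test after adjustment and 0 had an unadjusted p under 0.05. Of these 35, 34 had their lowest level in Het 1, the exception being Mcee of the propionate branch, which was lowest in Het 3. The groups did not overlap for 6 of the 35, all lower in Het, a share near the 15.6% of all tested genes. With median-ratio scaling 3 of the 6 (Sdhd, Ldhb and Slc16a1) overlapped. Klf15, a transcription factor that drives BCAA breakdown in muscle, stood at 11.1, 21.4 and 20.5 FPKM in Het 1, 2 and 3, against 27.1, 22.1 and 28.95 FPKM in WT 1, 2 and 3. Idh2, the NADP-dependent isocitrate dehydrogenase, stood at 292, 525 and 449.7 FPKM in Het, against 552, 574 and 595 FPKM in WT. The others were the succinate dehydrogenase subunit Sdhd, the lactate dehydrogenases Ldha and Ldhb, and Slc16a1, a carrier of lactate, pyruvate and ketone bodies. Slc16a1 stood at 5.23, 40.9 and 43.9 FPKM in Het, against 58.5, 44.0 and 45.6 FPKM in WT.

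Pdk4, the pyruvate dehydrogenase kinase induced by fasting and fatty acids, ranged widely within both groups. Its values were 7.33, 90.3 and 273 FPKM across Het 1, 2 and 3, against 101, 41.1 and 126 FPKM in WT 1, 2 and 3, so the groups overlapped widely. Ppm1k, the phosphatase that activates branched-chain ketoacid dehydrogenase, stood at 2.13, 14.4 and 11.7 FPKM in Het, against 9.69, 7.63 and 10.2 FPKM in WT. Het 2 and Het 3 lay above every WT heart for Ppm1k. The log2 fold changes of Pdk4 and Ppm1k were −0.46 (SE 1.24) and −0.25 (SE 0.59), and the adjusted p by limma was 0.872 and 0.857.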

How the data were processed

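Per the labels' protocols, poly(A) RNA of each heart was made into dUTP-marked libraries. Per the submitters' processing notes, cutadapt 1.9, HISAT2 2.0.4, StringTie 1.3.4d, edgeR, DESeq2 and mm10 were used, without a stated role. FPKM per library and gene was deposited by the authors, without counts, and that unit is inferred from the values since no header names it. The authors' own p-value, q-value, fold ratio, log2 ratio and −log10 p for Het against WT are in further columns, per the file headers. Of these, the p-values, q-values and log2 ratios were read.

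FPKM was used as deposited, as log2(FPKM + 1), on which fold changes of low genes are understated. The 11096 genes averaging 1 FPKM or more (all 40 members among them) were fitted with limma 3.58.1 in R 4.3.3 (eBayes with trend and robust variance, equal weights), with Benjamini-Hochberg adjustment over all of them and a threshold of 0.05. With 3 hearts against 3, an exact two-sided permutation test cannot go below 0.1, the value it gave for Otub1. Gene positions and transcript lengths are from GENCODE M21 (GRCm38), where all 40 identifiers were found. Sequence shared with other listed genes was searched in 50-nt windows of the transcripts. Besides the members with a processed pseudogene, Pdpr and Hibadh each shared 11 windows with a listed non-coding RNA. Ivd and Bckdk shared 1 to 5 windows with each of several other listed genes. The members and gene lists were chosen with earlier results of these data known, and 2 further genes of these pathways are not reported here. Members are all named, with values by heart for those separated by genotype or with the smallest p in a pathway, and further members described after their values were seen. Alternatives were another pseudocount, 2 other filters, 3 scalings, library weights, an ordinary variance model, the replicate number as a block and each library left out.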

Additional observations from a re-analysis of the deposited data

How the results depend on the processing

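No member passed limma's test in any alternative. Counts of called genes over all tested genes were 2 as reported, 1 with median-ratio scaling, with quantile normalization and with the replicate block, 22 with library weights, which gave Het 1 a weight of 0.0486, and 1 to 38 with libraries left out. The groups of 1 member did not overlap as reported, and of 0 with median-ratio scaling or quantile normalization. With libraries left out this held for 1 to 21 members, 12 without Het 1 and 21 without Het 1 and WT 2. The last setting was chosen after seeing the data. Of all tested genes, 15.6% were separated as lower and 1.83% as higher in Het as reported. With median-ratio scaling 814 and 612 of the 11096 were. The shares were 21.8% and 10.9% without Het 1, and 30.1% and 14.4% without Het 1 and WT 2. Members with an unadjusted p under 0.05 numbered 0 to 1 with libraries left out. Without Het 1 the member was Mpc1, lower in Het, where 1044 of the 11096 tested genes were lower and 329 higher at that threshold. Without Het 1 and WT 2 it was Pdpr, higher in Het (unadjusted p 0.00568 and adjusted p 0.462 by limma). In that setting 845 tested genes were lower and 246 higher. For Otub1 the log2 fold change was −1.26 to −1.06 with libraries left out, and it passed without Het 1 (adjusted p 0.0129 by limma) and with library weights (−1.07, adjusted p 0.00385), while the adjusted p was 0.00385 to 0.937 over all alternatives. The labels give both groups replicate numbers 1 to 3. Same-numbered hearts deviated from their group means with correlations of −0.197, −0.435 and 0.211, against 0.507 for Het 1 with WT 2. Deviations within a group sum to 0, so these values are not independent and cannot decide whether the numbers pair the hearts. With the replicate block 0 members and 1 gene passed.

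Above 0 with median-ratio scaling and quantile normalization were Bckdha (0.026 and 0.091), Bckdhb (0.039 and 0.065) and Ivd (0.011 and 0.051). The other reversals of sign came from leaving out Het 1 or from the library weights. With libraries left out, log2 fold changes ran from −1.08 to 0.021 for Acat1, −0.42 to 0.21 for Bckdha, −0.34 to 0.098 for Bckdhb, −0.68 to 0.16 for Bckdk, −0.67 to 0.069 for Bdh1, −1.22 to 0.066 for Cs and −0.74 to 0.23 for Dbt. In the same settings they ran from −1.005 to 0.080 for Dlat, −0.61 to 0.041 for Dlst, −0.99 to 0.13 for Got2, −0.68 to 0.12 for Hibadh, −0.48 to 0.30 for Ivd, −0.96 to 0.096 for Mccc1, −0.66 to 0.098 for Mccc2 and −1.07 to 0.15 for Ogdh. They also ran from −1.196 to 0.15 for Oxct1, −1.15 to 0.079 for Pcca, −0.89 to 0.045 for Pccb, −0.41 to 0.27 for Pcx, −1.30 to 0.14 for Pdha1, −0.75 to 0.044 for Pdhb, −1.19 to 0.0067 for Pdhx and −0.72 to 0.31 for Pdk1. The last ran from −0.98 to 0.20 for Pdk2, −1.57 to 0.95 for Pdk4, −0.56 to 0.015 for Pdp1, −1.02 to 0.67 for Pdpr, −0.68 to 0.47 for Ppm1k, −1.07 to 0.14 for Sucla2, −0.47 to 0.0099 for Suclg1 and −1.04 to 0.11 for Suclg2. With library weights they were 0.19 for Bckdha, 0.089 for Bckdhb, 0.13 for Bckdk, 0.028 for Bdh1, 0.0024 for Cs, 0.18 for Dbt, 0.029 for Dlat, 0.076 for Got2 and 0.093 for Hibadh. Further values with these weights were 0.25 for Ivd, 0.054 for Mccc1, 0.055 for Mccc2, 0.068 for Ogdh, 0.094 for Oxct1, 0.027 for Pcca, 0.0038 for Pccb, 0.22 for Pcx, 0.080 for Pdha1 and 0.021 for Pdhb. The rest were 0.26 for Pdk1, 0.15 for Pdk2, 0.77 for Pdk4, 0.0021 for Pdp1, 0.55 for Pdpr, 0.42 for Ppm1k, 0.099 for Sucla2 and 0.060 for Suclg2. Without Het 1 the pathway medians of the log2 fold change were −0.0019 for the TCA cycle, 0.08 for pyruvate, −0.03 for the shuttle, 0.04 for ketone and 0.10 for BCAA genes, against −0.63, −0.46, −0.81, −0.69 and −0.41 with all libraries, so that 1 library sets them. The cause of these differences was not tested. Absolute depth is unknown, so no counting error can be given, and the spread between hearts is the only error available.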

Other observations

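Processed pseudogenes of 4 members were lowest in Het 1. Got2-ps1, a copy of the mitochondrial aspartate aminotransferase gene on chromosome 5, stood at 0.738, 21.3 and 17.8 FPKM in Het 1, 2 and 3, against 21.2, 13.0 and 19.5 FPKM in WT 1, 2 and 3. In Het 1 it stood at 4.12% of its WT mean, against 22.7% for Got2. Gm6123, which shares 38 windows of 50 nt with Pdhb, ranged over 1.44 to 11.5 FPKM in Het, with its lowest value in Het 1, against 9.42 to 9.91 FPKM in WT. Gm15163, which shares 20 such windows with Suclg2, stood at 1.47, 9.68 and 9.49 FPKM in Het, against 8.01, 6.67 and 8.97 FPKM in WT. Mpc1-ps stood at 24.9% of its WT mean in Het 1, against 72.8% for Mpc1, so this copy was much lower relative to WT than its parent gene. These genes were looked up after the data were seen, and the division of reads between a gene and its copy is not stated in the sources used here.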
